A study of Mus musculus with 39 samples.

Results

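The SWI/SNF chromatin remodelers described here were the ATPase genes Smarca4 and Smarca2, the core and accessory subunit genes Smarcc1, Smarcc2, Smarcb1, Smarce1 and Smarcd1, the ARID subunit genes Arid1a and Arid1b, and Chd1, a remodeler of the CHD family that is not itself a SWI/SNF subunit. The 10 genes were found by the gene name that the scanner files give each probe, which picked 18 of the 55681 probes on the array. A filter on dim probes left 17 of these probes and 9 of the 10 genes, among 21440 probes and 15917 genes tested. The gene that failed it was Smarcd1, whose only probe was dim in oocytes and early embryos, and its values stand apart from the others below.

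SWI/SNF complexes use ATP to slide or evict nucleosomes and so change which DNA is open to transcription factors. Each complex holds 1 catalytic ATPase, either the Smarca4 product BRG1 or the Smarca2 product BRM, on a scaffold of Smarcc proteins, and the canonical form also holds either the Arid1a or the Arid1b product. In the mouse, BRG1 stored in the egg is known to be needed for zygotic genome activation, the start of transcription from the embryo's own genome.

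The study used mouse oocytes and embryos labelled B6D2F1 x ICR, with embryos obtained by in vitro fertilization of B6D2F1 eggs with ICR sperm. Fertilized eggs were exposed from 4 h post insemination for 6 h to 10 µM of T247, an inhibitor selective for HDAC3, or of MGCD0103, an inhibitor of class I histone deacetylases, and were then cultured on without inhibitor. One-cell embryos were collected 12 h, 2-cell embryos 24 h and 4-cell embryos 48 h post insemination, in untreated and T247 groups and, up to the 2-cell stage, an MGCD0103 group. Untreated GV (germinal vesicle) and MII (metaphase II) oocytes, 8-cell embryos, morulae and blastocysts completed 13 conditions of 3 arrays each, and every array held RNA pooled from 100 oocytes or embryos. The study describes the arrays of a condition as independent biological replicates.

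Signals of the arrays within a condition correlated at r between 0.988 and 0.997 over all genes, except for the 2-cell control arrays, where r ran from 0.934 to 0.994 because replicate 1 stood apart from replicates 2 and 3. The calls of members that rest on the 2-cell control arrays are therefore given with and without replicate 1, for the brightest probe of each gene and, in the inhibitor comparisons at the 2-cell stage, for the other probes of Smarcc1 and Smarce1. The 24 untreated arrays lay on 3 slides, each with 1 array of every stage, and the treated arrays on other slides, so slide and treatment cannot be told apart. All 7 oocyte markers (such as Zp1 and Gdf9) were well above background on all arrays of GV to 8-cell groups, so their detection does not separate these stages. The summed signal of the 2-cell markers, relative to each array's 75th percentile, was 172 to 236 in 2-cell controls against 10.4 to 15.1 in 1-cell and 23.6 to 31.9 in 4-cell controls. For trophectoderm markers the sum was 1244 to 1433 in blastocysts against 336 to 469 in morulae. The sum of inner cell mass markers was lower in blastocysts (62.56 to 78.15) than in 8-cell embryos (112.1 to 148.3) and morulae (138.4 to 179). Of markers of cells that could come along, 3 of 6 cumulus and granulosa genes were well above background on all arrays of GV oocytes and 1-cell controls and 0 of 6 in 4-cell to blastocyst controls, with a summed signal of 6.75 to 6.95 in GV oocytes, 14.1 to 17.9 in MII oocytes, 5.65 to 7.39 in 1-cell controls and 0.199 to 0.221 in 4-cell controls. Of the 4 sperm markers, 2 were well above background on all arrays of GV oocytes, where their summed signal was highest (10.1 to 10.9) before any contact with sperm, 1 in MII oocytes and 1-cell controls and 2 in 2-cell controls. The part of these cells in the values below was not tested. In RNA from pooled embryos, fewer cells with a transcript and less transcript in each cell cannot be told apart.

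The ATPase and scaffold paralogs, on which most of the results below turn, are shown here by the 250 bases upstream of their RefSeq transcription starts (build GRCm38.p6, 5′ to 3′), with the capitals marking the GC box letters GGGCGG or their complement CCGCCC. The first pair are the ATPase genes and the second the scaffold genes.
Smarca4, chr9:21615919-21616168, plus strand: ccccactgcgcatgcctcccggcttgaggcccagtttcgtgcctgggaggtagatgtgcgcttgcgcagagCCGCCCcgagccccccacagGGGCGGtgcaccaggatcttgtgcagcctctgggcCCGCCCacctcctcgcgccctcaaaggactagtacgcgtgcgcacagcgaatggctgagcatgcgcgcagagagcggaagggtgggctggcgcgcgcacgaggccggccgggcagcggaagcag
Smarca2, chr19:26604910-26605159, plus strand: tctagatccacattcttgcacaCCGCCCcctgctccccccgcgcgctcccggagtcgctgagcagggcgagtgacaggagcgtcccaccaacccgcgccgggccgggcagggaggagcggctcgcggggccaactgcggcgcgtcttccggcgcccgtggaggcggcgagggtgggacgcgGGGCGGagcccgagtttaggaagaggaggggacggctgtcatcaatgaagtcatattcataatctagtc
Smarcc1, chr9:110131774-110132023, plus strand: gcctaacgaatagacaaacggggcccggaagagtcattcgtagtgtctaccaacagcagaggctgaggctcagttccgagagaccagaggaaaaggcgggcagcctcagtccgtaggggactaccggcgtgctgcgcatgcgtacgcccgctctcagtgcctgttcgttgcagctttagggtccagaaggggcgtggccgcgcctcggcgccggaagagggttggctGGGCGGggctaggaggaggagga
Smarcc2, chr10:128458986-128459235, plus strand: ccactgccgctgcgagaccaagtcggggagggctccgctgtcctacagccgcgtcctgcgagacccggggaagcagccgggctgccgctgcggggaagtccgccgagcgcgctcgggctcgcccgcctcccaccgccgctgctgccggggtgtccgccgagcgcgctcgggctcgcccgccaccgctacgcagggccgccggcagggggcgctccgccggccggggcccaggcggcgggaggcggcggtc
The upstream bases of Smarca4 held GGGCGG 3 times on either strand, those of Smarca2 held it 2 times, those of Smarcc1 held it 1 time and those of Smarcc2 0 times. Among all 32851 promoters of that table, 32.7% held it in the same window, and among the 9 promoters listed for the members (8 genes, without Smarce1 and Chd1), 8 did. Neither CCAAT (33.8% of all promoters) nor TATAAA (12.4%), searched on both strands, was found in any of the 9 member promoters. All 4 printed promoters were rich in CpG, with 25 CpG dinucleotides upstream of Smarca4, 28 of Smarca2, 21 of Smarcc1 and 40 of Smarcc2 against a median of 6 over all promoters. The letters of a motif describe the sequence only and were not tied to any change in level.

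In untreated development, the alternative ATPase genes moved in opposite directions between the 2-cell and the 4-cell stage. Smarca4, Smarce1 and Chd1 rose and Smarca2, Arid1b and Smarcc2 fell, while Arid1a, Smarcb1 and Smarcc1 did not pass the threshold for a differentially expressed gene (DEG), which was a log2 fold change (LFC) of at least 1 in size with a Benjamini-Hochberg adjusted p below 0.05 in limma. The 6 DEGs among 9 members (3 higher, 3 lower) stand beside 60.1% of all 15917 genes tested in this comparison (24.7% higher, 35.4% lower), so their share is close to that of other genes, and the median LFC of the members was 0.25 against -0.27 over all genes. Of the DEGs over all genes, 41.1% were higher at the 4-cell stage, and 53.4% when each array was scaled to its 75th percentile instead.

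**Figure D1:**
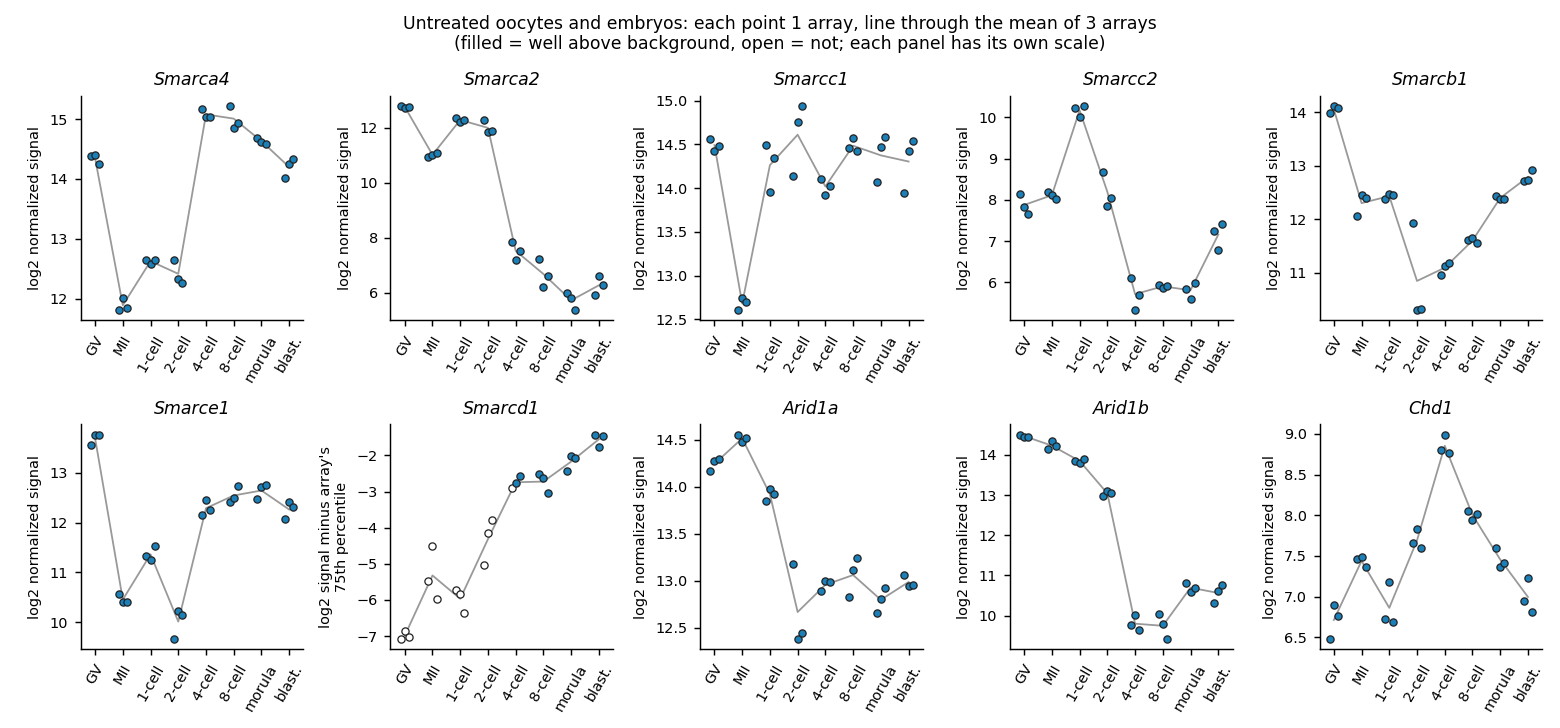
Levels of the 10 genes in untreated GV and MII oocytes and in 1-cell to blastocyst embryos, with each point 1 array and a line through the means of 3 arrays. The vertical axes give the log2 normalized signal of the brightest probe of a gene, or for Smarcd1 the log2 signal minus the array's 75th percentile, with open points where the spot was not well above background; Smarca2 fell from between 11.84 and 12.27 in 2-cell to between 7.19 and 7.86 in 4-cell embryos while Smarca4 rose from between 12.27 and 12.65 to between 15.03 and 15.16.

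Smarca4 encodes the ATPase BRG1, and its log2 normalized signal (probe A_55_P2154684) was 12.65, 12.32 and 12.27 on the 3 arrays of 2-cell controls and 15.16, 15.04 and 15.03 on those of 4-cell controls. The 4-cell arrays all lay above the 2-cell arrays, and Smarca4 rose 6.34-fold (LFC 2.66 ± 0.10 SE, adjusted p = 3.33e-20). Without 2-cell replicate 1 the LFC was 2.76. From there its level was 14.86 to 15.22 in 8-cell embryos, 14.58 to 14.69 in morulae and 14.01 to 14.34 in blastocysts, which put the blastocyst close to the 14.25 to 14.41 of GV oocytes. A second probe of Smarca4 (A_55_P2154690) also rose from 2-cell to 4-cell embryos, with an LFC of 2.38.

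Smarca2 encodes BRM, the alternative ATPase, and its signal was 12.27, 11.84 and 11.88 in 2-cell and 7.86, 7.19 and 7.52 in 4-cell controls. The groups lay far apart, and Smarca2 fell 22.2-fold (LFC -4.47 ± 0.19 SE, adjusted p = 3.23e-19; -4.38 without 2-cell replicate 1). Over all 13 conditions it spanned the widest range of the 9 genes, 131-fold from GV oocytes, at 12.74 to 12.80, to morulae, at 5.37 to 6.00. Its levels in 8-cell embryos (6.21 to 7.23), morulae and blastocysts (5.92 to 6.61) gave no DEG from one stage to the next, although under the 75th percentile scaling the fall from the 8-cell stage to the morula was called (LFC -1.60).

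The scaffold genes Smarcc1 and Smarcc2 encode related proteins that bind each other at the centre of the complex. Smarcc2 had its highest untreated level in 1-cell embryos, at 10.22, 10.02 and 10.28, against 8.67, 7.86 and 8.05 in 2-cell and 6.11, 5.33 and 5.71 in 4-cell controls. It rose 4.17-fold from MII oocytes to 1-cell embryos (LFC 2.06 ± 0.18 SE, adjusted p = 8.17e-11), fell 3.93-fold to the 2-cell stage (LFC -1.98 ± 0.18 SE, adjusted p = 5.42e-11; -2.08 without 2-cell replicate 1) and fell a further 5.58-fold to the 4-cell stage (LFC -2.48 ± 0.18 SE, adjusted p = 1.86e-13; -2.39 without it). In blastocysts its signal was 7.26, 6.79 and 7.42, above the 5.59 to 5.99 of morulae, and the rise was called (LFC 1.35 ± 0.18 SE, adjusted p = 2.60e-07), but it fell short of the threshold under the 75th percentile scaling (LFC 0.95), quantile normalization (0.83) and the normexp background correction (0.77).

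Smarcc1 was flatter. Its brightest probe (A_55_P2131153) was lowest in MII oocytes, at 12.60, 12.74 and 12.70, and it lay between 13.92 and 14.94 on all arrays of every other untreated stage. It rose 3.00-fold from MII oocytes to 1-cell embryos (LFC 1.58 ± 0.18 SE, adjusted p = 7.67e-09). At that step A_52_P312837 had an LFC of 1.12, A_55_P1984622 of 0.14 and A_55_P1984625 of -0.17, and with the mean of the probes the Smarcc1 call was lost (LFC 0.67). From 2-cell to 4-cell embryos its LFC was -0.59 with this probe, while 2 of its other 3 probes rose, A_52_P312837 with an LFC of 1.99 and A_55_P1984622 with 1.29. The probes of Smarcc1 thus gave opposite signs at that step.

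Smarcb1 encodes a core subunit that contacts the nucleosome. It was highest in GV oocytes, at 13.98, 14.12 and 14.08, and its 2-cell control arrays read 11.92 on replicate 1 and 10.30 and 10.32 on replicates 2 and 3, so that replicate 1 lay closer to the 1-cell controls (12.38, 12.47 and 12.45) than to its own group. Smarcb1 fell 3.00-fold from 1-cell to 2-cell embryos (LFC -1.59 ± 0.22 SE, adjusted p = 2.04e-07), and by an LFC of -2.03 without replicate 1. Later it read 10.96 to 11.19 in 4-cell embryos, 11.55 to 11.64 in 8-cell embryos, 12.37 to 12.44 in morulae and 12.71 to 12.92 in blastocysts, and none of these neighbouring steps passed the DEG threshold.

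Smarce1 encodes a subunit with an HMG box. Its brightest probe (A_55_P1989885, mm9 chr11:99071347-99071406, minus strand) read 13.55, 13.75 and 13.76 in GV oocytes, 10.57, 10.40 and 10.40 in MII oocytes, 9.67, 10.24 and 10.14 in 2-cell and 12.16, 12.44 and 12.26 in 4-cell controls. The probe fell 9.39-fold from GV to MII (LFC -3.23 ± 0.13 SE, adjusted p = 9.98e-20), fell 2.54-fold from 1-cell to 2-cell embryos (LFC -1.35 ± 0.13 SE; -1.08 without 2-cell replicate 1, and -0.83 and not called under quantile normalization) and rose 4.83-fold to the 4-cell stage (LFC 2.27 ± 0.13 SE, adjusted p = 6.75e-16; 2.00 without it). The other probe (A_55_P2026291, chr11:99070435-99070494) gave 0.08, -1.12 and 0.23 for the same steps. On the slides of replicates 2 and 3 it moved as the brightest probe did at the later 2 steps, by -1.83 and -1.54 and then by 0.69 and 0.72. On the slide of 2-cell replicate 1 it differed by 0.02 and -0.72. Over the 13 condition means, which include that array, the probes of Smarce1 correlated at r = 0.0588. Across all conditions the 2 probes thus do not give a common account of this gene. Whether they read different transcripts was not tested.

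The ARID subunits are DNA-binding proteins of the canonical complex, and only 1 of the pair occurs in a given complex. Arid1b read 13.84, 13.79 and 13.91 in 1-cell, 12.99, 13.09 and 13.05 in 2-cell and between 9.64 and 10.0 in 4-cell controls. It fell 9.47-fold between the 2-cell and the 4-cell stage (LFC -3.24 ± 0.12 SE, adjusted p = 2.04e-20; -3.28 without 2-cell replicate 1), and a second probe (A_55_P2103657) fell by an LFC of -3.37, while the third (A_55_P2103641) had an LFC of -0.45. Arid1a read 13.85, 13.98 and 13.93 in 1-cell, 13.18, 12.38 and 12.44 in 2-cell controls, with all 4-cell controls at 12.89 or above. It fell 2.38-fold from the 1-cell to the 2-cell stage (LFC -1.25 ± 0.14 SE, adjusted p = 4.12e-09, and -1.47 without 2-cell replicate 1), though only by -0.66 under quantile normalization. Its LFC to the 4-cell stage was 0.29. The other Arid1a probe (A_66_P116888) fell at both steps. On the 3 slides it differed by -0.53, -1.14 and -1.01 to the 2-cell stage and by -1.34, -0.60 and -0.59 to the 4-cell stage. The direction of Arid1a from 2-cell to 4-cell embryos thus depends on the probe.

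Chd1 binds methylated histone tails at active genes. It read 7.66, 7.83 and 7.59 in 2-cell and 8.80, 8.99 and 8.77 in 4-cell controls, above all other untreated stages (6.48 to 8.05). The rise to the 4-cell stage was called (LFC 1.16 ± 0.16 SE, adjusted p = 8.34e-08), but it was no longer called without 2-cell replicate 1 (LFC 1.00) and with the normexp correction (0.99).

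Smarcd1 encodes an accessory subunit that links the complex to transcription factors. Its probe (A_51_P101765) was well above background on 0 arrays of GV and MII oocytes and of 1-cell and 2-cell embryos, on 2 of 3 arrays of 4-cell controls and on all 3 arrays of 8-cell embryos, morulae and blastocysts. Relative to each array's 75th percentile, its log2 signal was -2.50, -2.63 and -3.04 in 8-cell embryos, -2.43, -2.01 and -2.08 in morulae and -1.42, -1.78 and -1.45 in blastocysts, the highest group. Taking the lowest signal well above background on each array as a floor, the blastocyst level was at least 11.4-fold higher than in GV oocytes, at least 4.92-fold higher than in MII oocytes, at least 5.28-fold higher than in 1-cell and at least 5.15-fold higher than in 2-cell controls.

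The step from GV to MII oocytes gave 5 DEGs among the members, all lower (Smarca4, Smarca2, Smarcc1, Smarcb1 and Smarce1), against 49.5% of all 15577 genes tested (0.514% higher, 48.9% lower), and it was the step most open to scaling. The median LFC of all genes was -0.97 in the smooth quantile values, where 1.04% of the DEGs were higher in MII oocytes, and 0.34 under the 75th percentile scaling, where 55.9% were. By the brightest probe of each, Smarca4 (LFC -2.46 ± 0.10 SE) and Smarce1 (-3.23) kept their call under the 75th percentile scaling, with LFCs of -1.10 and -1.88. In the smooth quantile values the other Smarca4 probe (A_55_P2154690) differed by -0.71, -0.55 and -0.56 on the 3 slides. The other Smarce1 probe (A_55_P2026291) differed by 0.28, 0.01 and -0.05. Under the 75th percentile scaling Smarca2 (-0.40), Smarcc1 (-0.45) and Smarcb1 (-0.40) were no longer called. Arid1a (1.63) and Smarcc2 (1.53) were called higher there, as was Chd1, and Arid1b, at -0.24 in the smooth quantile values, turned to 1.12. The Arid1b probe A_55_P2103657 rose in the smooth quantile values too, by 1.16, 1.18 and 1.04 on the 3 slides. A_55_P2103641 fell by -0.97, -0.76 and -0.91, so the direction of Arid1b also depends on the probe. From MII oocytes to 1-cell embryos 3 members rose (Smarcc2, Smarcc1 and Smarca2, the last by an LFC of 1.27 ± 0.19 SE), against 22.9% of 15637 genes called (17.3% higher, 5.54% lower), with Smarca2 at 0.89 under the 75th percentile scaling.

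From 1-cell to 2-cell embryos 4 members fell and 0 rose, against 52.4% of all genes called (18.7% higher, 33.6% lower) and a median LFC of -0.48 over all genes. Under quantile normalization Arid1a (-0.66) and Smarce1 (-0.83) were no longer called, while Chd1 (1.02) and Smarcc1 (1.07) were called higher. Chd1 was also called higher under the 75th percentile scaling (1.07). Between the 4-cell and the 8-cell stage 0 of 9 members were DEGs in limma (4 with an unadjusted p under 0.05), against 15.5% of all genes (8.15% higher, 7.31% lower). Between the 8-cell stage and the morula 0 were (5 with an unadjusted p under 0.05), against 38.3% (31.8% higher, 6.53% lower), but the median of all genes was shifted by 0.55, and Smarca2, Chd1 and Smarca4 were called lower under the 75th percentile scaling, where that shift was -0.10. From the morula to the blastocyst 1 of 9 members was called, Smarcc2, against 27.6% of all genes (19.7% higher, 7.94% lower).

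Of 22 other SWI/SNF subunit genes, 21 were tested between the 2-cell and 4-cell stages, and 6 rose and 9 fell, beside 24.7% of all genes higher and 35.4% lower. Those with the largest changes are named, a choice made after their values were seen. The risers were led by Bcl7a (LFC 5.48 ± 0.32 SE), Smarcd3 (2.76 ± 0.52 SE), a paralog of Smarcd1, and Dpf2 (1.74 ± 0.12 SE), a reader of acetylated histones. The fallers were led by Ss18l1 (-4.88 ± 0.23 SE), Bcl7c (-4.00 ± 0.19 SE) and Bcl11a (-3.06 ± 0.27 SE). Under the 75th percentile scaling 7 rose and 7 fell, and without 2-cell replicate 1 4 rose and 8 fell.

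**Figure D2:**
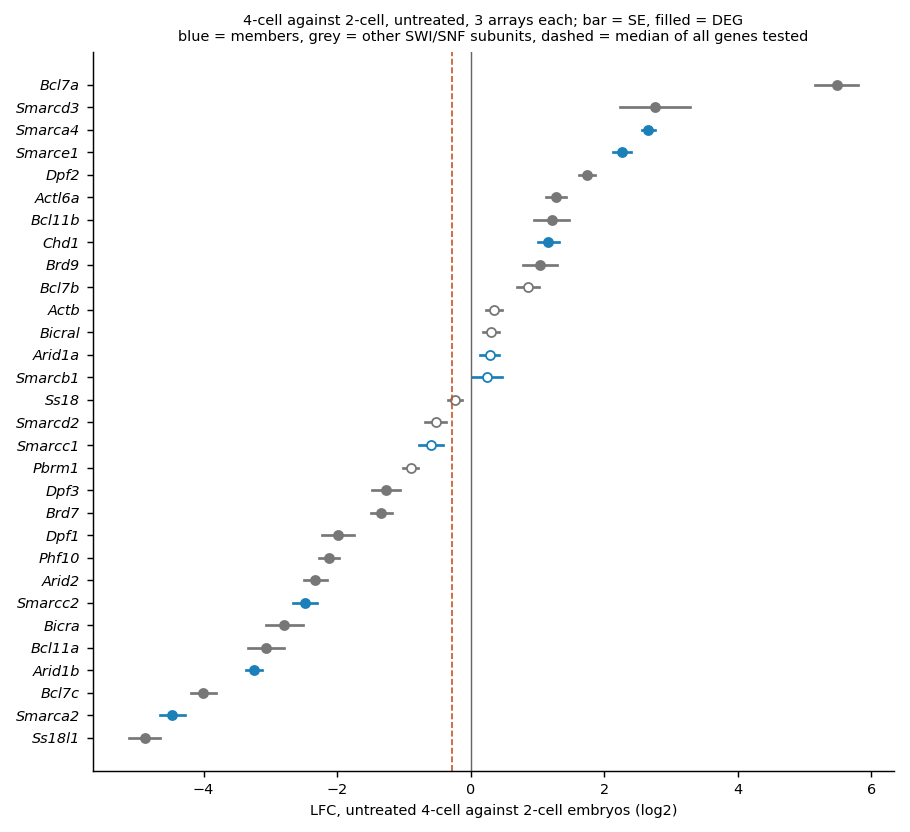
LFC between untreated 4-cell and 2-cell embryos (horizontal axis, log2) for the 9 members (blue) and 21 other SWI/SNF subunit genes (grey), 3 arrays a stage, with bars of 1 SE, filled points for DEGs and a dashed line at the median of all genes, -0.27. Members run from Smarca2 at -4.47 to Smarca4 at 2.66, within the range of the other subunits, which run from Ss18l1 at -4.88 to Bcl7a at 5.48.

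The question that the inhibitor groups address is how a short inhibition of histone deacetylases after fertilization changes these levels from the 1-cell to the 4-cell stage. At the 1-cell stage the members were close to control: with T247 0 of 9 were DEGs in limma (1 with an unadjusted p under 0.05, against 6.65% DEGs over all genes, 5.7% higher and 0.949% lower), with LFCs from -0.20 for Smarcc2 to 0.34 for Smarce1. With MGCD0103 0 of 9 were DEGs (1 with an unadjusted p under 0.05, against 4.36%, 3.59% higher and 0.766% lower), with LFCs from -0.09 for Smarcc2 to 0.38 for Smarca4. Smarca4 read 12.64, 12.58 and 12.65 in 1-cell controls and 13.01, 13.06 and 12.95 with MGCD0103, so its arrays did not overlap, and its adjusted p was 0.0106, but the change of 1.30-fold was under the DEG threshold.

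**Figure D3:**
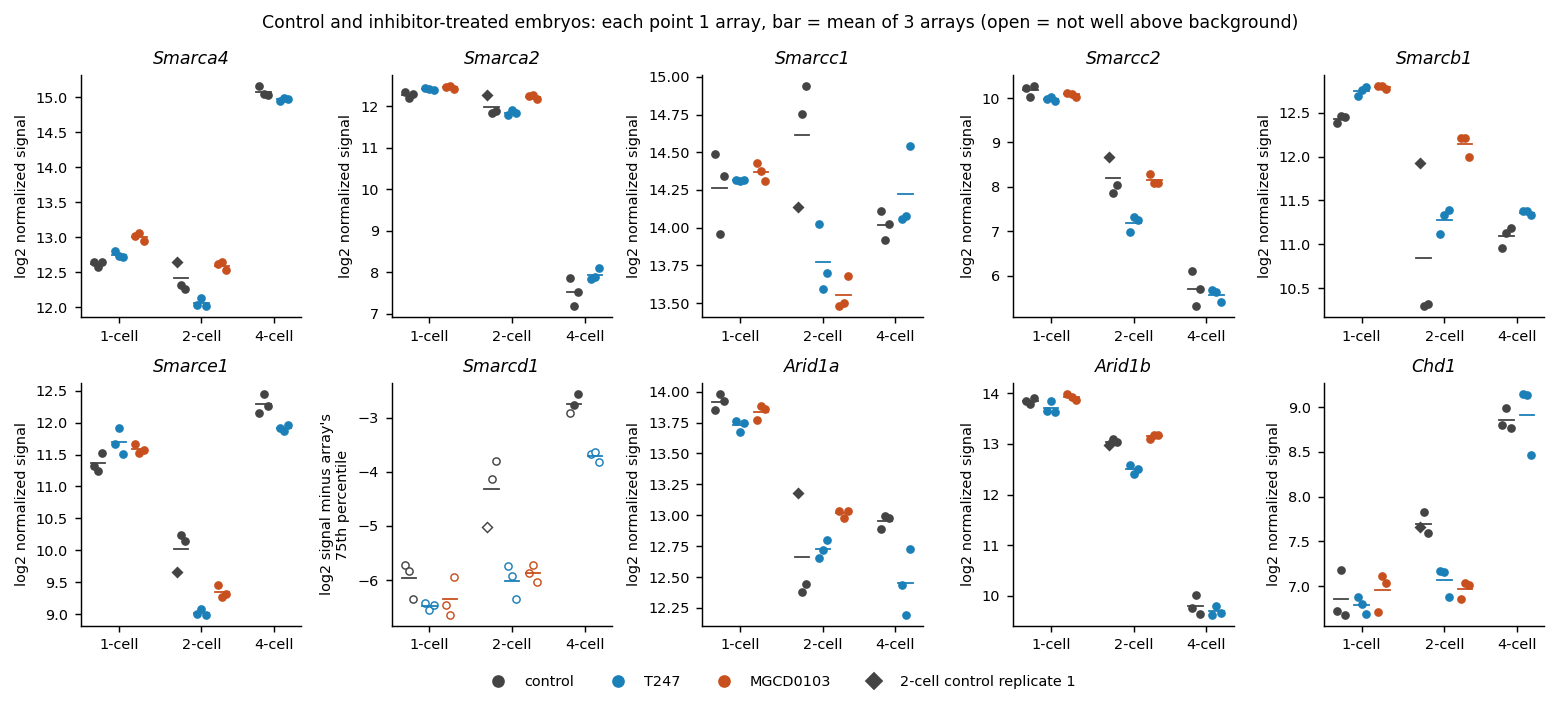
Levels of the 10 genes in control (grey), T247 (blue) and MGCD0103 (orange) embryos from the 1-cell to the 4-cell stage, with each point 1 array, bars at the means of 3 arrays and a diamond for 2-cell control replicate 1. The vertical axes give the log2 normalized signal, or for Smarcd1 the log2 signal minus the array's 75th percentile (open points, not well above background); the treated arrays of Smarcc1 at the 2-cell stage lie between 13.48 and 14.02, below the controls at 14.14 to 14.94.

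At the 2-cell stage Smarcc1 was lower with both inhibitors. It read 14.14, 14.75 and 14.94 in controls, 14.02, 13.60 and 13.70 with T247, and 13.48, 13.50 and 13.68 with MGCD0103, with control replicate 1 the nearest to the treated arrays. With MGCD0103 Smarcc1 fell 2.08-fold (LFC -1.06 ± 0.18 SE, adjusted p = 9.01e-06; -1.28 without control replicate 1), but the call was lost without control replicate 2 (-0.95), control replicate 3 (-0.93) or MGCD0103 replicate 2 (-0.97) and under the 75th percentile scaling (-0.98). With T247 its LFC was -0.84 ± 0.18 SE (adjusted p = 0.000172), which did not reach the DEG threshold, and it was -1.06 and called without control replicate 1.

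The other probes of Smarcc1 had lower means than control at the 2-cell stage too. A_55_P1984622 read 7.79, 8.53 and 8.59 in controls, 6.79, 6.20 and 6.42 with T247 and 6.21, 6.34 and 6.36 with MGCD0103, and it fell 3.56-fold with T247 (LFC -1.83 ± 0.19 SE) and also fell with MGCD0103 (adjusted p = 6.05e-10), with LFCs of -2.22 and -2.38 without control replicate 1. A_55_P1984625 had LFCs of -0.93 with T247 and -1.02 with MGCD0103, the latter called, and its control replicate 1, at 6.02, lay among the treated arrays (5.65 to 6.03). Without that array the LFCs were -1.48 and -1.56, both called. A_52_P312837 fell with T247 (LFC -1.29 ± 0.31 SE; -1.61 without control replicate 1), but with MGCD0103 its replicate 1 read 7.69 against 5.53 on the other 2 arrays, and the LFC of -0.60 was not called (-0.93 without control replicate 1, not called).

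**Figure D4:**
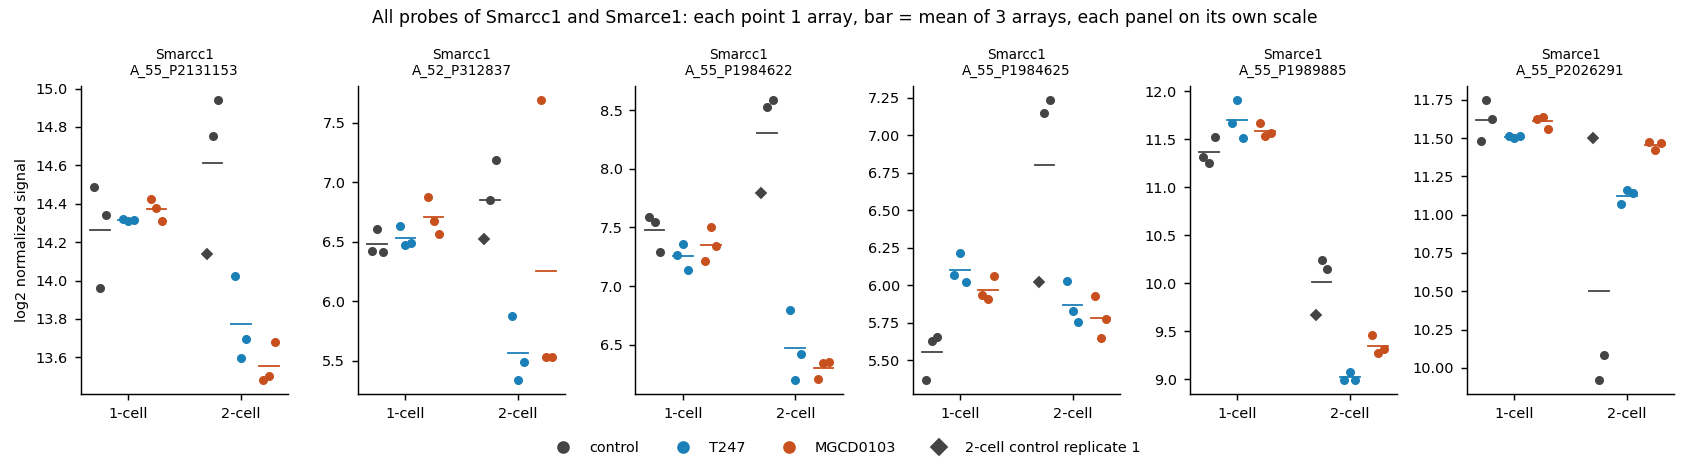
Log2 normalized signal (vertical axis, own scale in each panel) of the 4 probes of Smarcc1 and the 2 probes of Smarce1 in 1-cell and 2-cell embryos, with each point 1 array, bars at the means of 3 arrays and a diamond for 2-cell control replicate 1. At the 2-cell stage the Smarcc1 probes lie lower in treated embryos except on 1 MGCD0103 array of A_52_P312837, at 7.69, and beside control replicate 1 of A_55_P1984625, at 6.02, while the Smarce1 probes move apart.

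Smarcc2 differed from Smarcc1 between the inhibitors. It read 8.67, 7.86 and 8.05 in 2-cell controls, 6.98, 7.32 and 7.25 with T247 and 8.29, 8.09 and 8.09 with MGCD0103. All T247 arrays lay below the controls, and Smarcc2 fell 2.02-fold (LFC -1.01 ± 0.18 SE, adjusted p = 2.48e-05), but this call lay at the threshold: it ended without control replicate 1 (LFC -0.92), without T247 replicate 1 (-0.90), under the 75th percentile scaling (-0.81), under quantile normalization (-0.93) and with normexp (-0.84). With MGCD0103 the LFC was -0.04 ± 0.18 SE, and the direct difference between MGCD0103 and T247 was 0.97 (95% interval 0.60 to 1.35, adjusted p = 0.000178), just under the DEG threshold.

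Smarcb1 read 12.22, 12.22 and 12.00 with MGCD0103, above the 11.92, 10.30 and 10.32 of 2-cell controls, and it rose 2.46-fold (LFC 1.30 ± 0.22 SE, adjusted p = 1.37e-05). Without control replicate 1 the LFC was 1.74. The call held under all 17 alternative settings tried, with LFCs from 1.02 to 1.74. Smarcb1 had only 1 probe on the array, as did Smarca2, Smarcc2 and Chd1, so no setting varied the probe of these genes. With T247 Smarcb1 read 11.11, 11.34 and 11.40, between the control arrays, and its LFC of 0.44 ± 0.22 SE was not called (0.88 without control replicate 1). The MGCD0103 arrays lay just below the 12.38 to 12.47 of 1-cell controls.

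Smarce1 again split by probe. A_55_P1989885 read 9.67, 10.24 and 10.14 in controls, between 8.99 and 9.08 with T247 and 9.46, 9.27 and 9.32 with MGCD0103, all treated arrays below the controls, with LFCs of -0.99 ± 0.13 SE and -0.67 ± 0.13 SE that missed the threshold, and -1.27 (called) and -0.94 without control replicate 1. A_55_P2026291 read 11.50, 9.92 and 10.09 in controls, 11.07, 11.16 and 11.14 with T247 and 11.48, 11.42 and 11.47 with MGCD0103, with LFCs of 0.62 and 0.95 that were not called, and of 1.01 and 1.35, both called, without control replicate 1. The gene's direction at the 2-cell stage therefore depends on the probe.

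The ATPase genes changed less at the 2-cell stage. Smarca4 read 12.65, 12.32 and 12.27 in controls, 12.03, 12.13 and 12.02 with T247 and 12.62, 12.65 and 12.53 with MGCD0103, with LFCs of -0.35 ± 0.10 SE (adjusted p = 0.00439; -0.27 without control replicate 1) and 0.18 ± 0.10 SE. Smarca2 had LFCs of -0.15 and 0.24, and its groups overlapped with both inhibitors. The LFC of Arid1a was 0.06 with T247 and 0.35 with MGCD0103, with control replicate 1, at 13.18, above all treated arrays. Without that array the Arid1a LFCs were 0.28 and 0.57, neither called. Arid1b read 12.58, 12.41 and 12.50 with T247, below all controls (12.99, 13.09 and 13.05), with an LFC of -0.54 ± 0.12 SE, and 13.09, 13.18 and 13.19 with MGCD0103 (LFC 0.11). Chd1 lay below all controls with both inhibitors, at 6.88 to 7.17 with T247 and 6.86 to 7.04 with MGCD0103 against 7.59 to 7.83, with LFCs of -0.62 ± 0.16 SE and -0.72 ± 0.16 SE.

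In all, 1 of 9 members was a DEG with T247 at the 2-cell stage, against 25.3% of all genes (8.92% higher, 16.3% lower). With MGCD0103 2 were, against 27.9% (12.3% higher, 15.6% lower). An adjusted p below 0.05 was reached by 6 members with T247 and 5 with MGCD0103, beside 54.3% and 56.7% of all genes. The median LFC of the members with T247 was -0.54 against -0.27 over all genes, and with MGCD0103 0.11 against 0.06. Of the DEGs over all genes with T247, 35.3% were higher, and 52.6% under the 75th percentile scaling. Both inhibitors were compared with the same 3 control arrays, so the results of the inhibitors are not independent of each other.

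**Figure D5:**
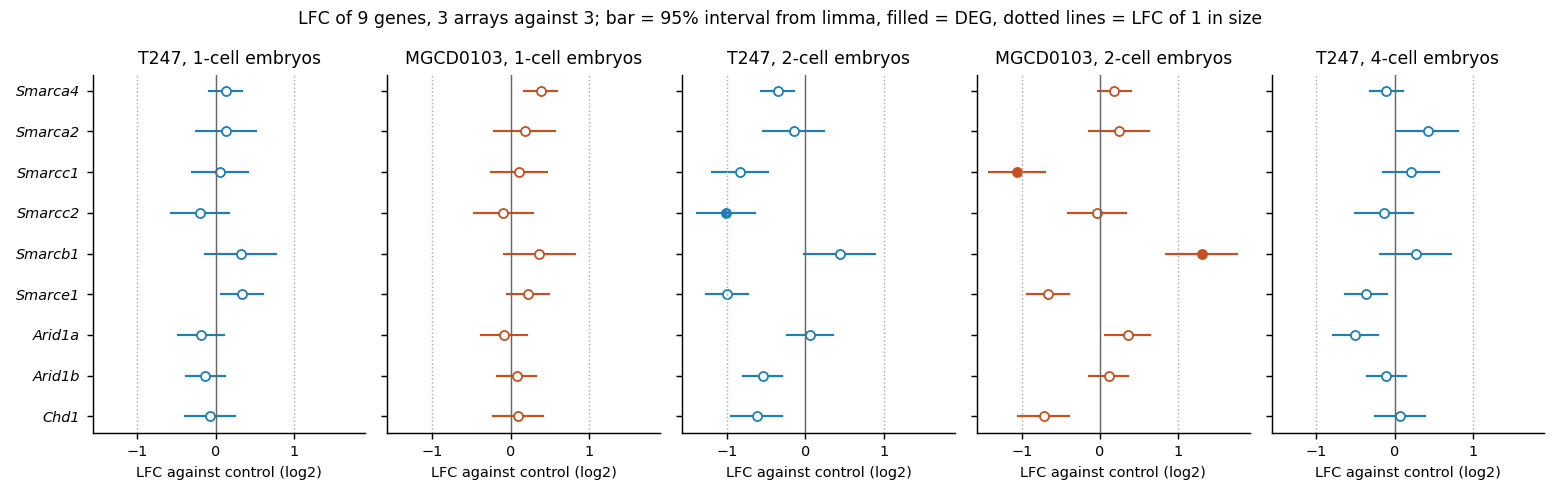
LFC against the controls of the same stage (horizontal axis, log2) of the 9 members with T247 (blue) and MGCD0103 (orange), 3 arrays against 3, with bars for the 95% interval from limma, filled points for DEGs and dotted lines at an LFC of 1 in size. Filled points appear at the 2-cell stage, for Smarcc2 with T247 (-1.01) and for Smarcc1 (-1.06) and Smarcb1 (1.30) with MGCD0103.

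At the 4-cell stage, where T247 but not MGCD0103 was measured, 0 of 9 members were DEGs in limma (3 with an unadjusted p under 0.05, against 18.1% DEGs over all genes, 11.6% higher and 6.52% lower). Arid1a read 12.44, 12.20 and 12.73 with T247, below the controls, all at 12.89 or above, with an LFC of -0.50 ± 0.14 SE (adjusted p = 0.00451). By probe A_55_P1989885, Smarce1 read 11.92, 11.87 and 11.96 with T247, below the 12.16 to 12.44 of controls (LFC -0.37 ± 0.13 SE, adjusted p = 0.0214). Its other probe (A_55_P2026291) had an LFC of 0.08, not called, in the fit without 2-cell control replicate 1. Smarca4 (LFC -0.11) and Smarca2 (0.42) stayed at their separate 4-cell levels, with T247 arrays of Smarca2 at 7.85, 7.88 and 8.10 against 7.86, 7.19 and 7.52 in controls. Smarcd1 was well above background on 2 of 3 control arrays and on 0 of 3 T247 arrays, with log2 signals relative to the 75th percentile of -2.90, -2.76 and -2.57 in controls and of -3.67, -3.64 and -3.81 with T247, so the measured means differed by 1.95-fold on this scale. In the smooth quantile values, with the filter on dim probes dropped, the Smarcd1 LFC was -0.87 (adjusted p = 0.0120), short of the DEG threshold. At the 2-cell stage Smarcd1 was not well above background in any group, with -5.03, -4.14 and -3.79 in controls, -5.75, -5.93 and -6.35 with T247 and -5.88, -5.72 and -6.03 with MGCD0103, and no fold is given.

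The difference between the inhibitors was tested directly in 9 members at each of 2 stages, at the same dose and times, with p-values adjusted over all 15917 genes for each stage. At these stages all T247 arrays lay on the same slide and all MGCD0103 arrays on another, so inhibitor and slide cannot be told apart in this comparison. At the 1-cell stage 0 of 9 members differed by the DEG rule in limma (1 with an unadjusted p under 0.05), against 0.327% of all genes (0.0565% higher, 0.27% lower), with differences of MGCD0103 minus T247 from -0.11 to 0.26. At the 2-cell stage 0 of 9 did (7 with an unadjusted p under 0.05), against 6.41% of all genes (3.51% higher, 2.9% lower). An adjusted p below 0.05 was reached by 4 members, beside 36.8% of all genes. These were Smarcc2 (0.97), Smarcb1 (0.86, 95% interval 0.41 to 1.31), Arid1b (0.65, interval 0.40 to 0.90) and Smarca4 (0.54, interval 0.33 to 0.75). The mean of each was higher with MGCD0103 than with T247. The median difference was 0.39 for the members and 0.24 for all genes, and for all genes 0.11 under the 75th percentile scaling and 0.06 under quantile normalization. Under quantile normalization the difference was 0.23 for Smarca4 (adjusted p = 0.0910) and 0.59 for Smarcb1 (adjusted p = 0.0523), both no longer below 0.05, and 0.31 for Arid1b, while Smarcc2 was called (1.03). Smarcc1, with a difference of -0.22 (interval -0.58 to 0.14), and Chd1, with -0.10 (interval -0.42 to 0.22), showed no difference that passed the test, which does not show that the inhibitors act alike.

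The change with stage was tested as the difference between the LFCs of an inhibitor at neighbouring stages. Between 1-cell and 2-cell embryos the LFC with T247 moved down for 1 of 9 members, Smarce1 (difference -1.33 ± 0.19 SE, adjusted p = 1.82e-06; -1.61 without 2-cell control replicate 1), against 20% of all genes (4.71% higher, 15.3% lower). This rests on probe A_55_P1989885, since the other Smarce1 probe gave 0.73 (1.13, called higher, without 2-cell control replicate 1). The Smarce1 call was lost with the mean of the probes (-0.30), where Smarcc1 was called instead (-1.33), and just missed under the 75th percentile scaling. With MGCD0103 it moved down for 1 of 9, Smarcc1 (-1.16 ± 0.25 SE, adjusted p = 0.000449; -1.39 without that array), against 22.9% (6.94% higher, 16% lower). Under the 75th percentile scaling Smarcc1 was not called (-0.90) and Smarcb1 was, higher (1.15). Smarcb1, at 0.93 and not called in the smooth quantile values, was also called under quantile normalization (1.26), without 1-cell control replicate 1 (1.04) and without 2-cell control replicate 1 (1.37). By A_55_P1989885, Smarce1 was called lower without the latter array (-1.17) or 1-cell control replicate 3 (-1.06). Without 2-cell control replicate 1, the other Smarce1 probe (A_55_P2026291) was called higher with MGCD0103 (1.36). Between 2-cell and 4-cell embryos the LFC of Smarcc1 with T247 moved up (1.05 ± 0.25 SE, adjusted p = 0.00108; 1.26 without 2-cell control replicate 1), against 27.5% of all genes (19.3% higher, 8.24% lower), and its 4-cell LFC was 0.21. The call held in 16 of 23 alternative settings and was lost under the 75th percentile scaling (0.68), under quantile normalization (0.76) and without any 1 of 5 other arrays (0.83 to 0.99). The stages share no arrays, but the 2-cell controls enter all 3 differences.

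The other SWI/SNF subunits gave a background to these members. With T247 at the 2-cell stage 1 of 21 rose and 3 fell, beside 8.92% of all genes higher and 16.3% lower. Bcl11b (LFC 1.54 ± 0.26 SE), a transcription factor found with the complex, rose. Brd9 (-1.59 ± 0.26 SE), a bromodomain subunit, Dpf2 (-1.40 ± 0.12 SE) and Dpf3 (-1.04 ± 0.21 SE) fell. With MGCD0103 Bcl11b rose (1.36 ± 0.26 SE) and Brd9 (-2.60 ± 0.26 SE), Smarcd3 (-1.32 ± 0.52 SE) and Dpf2 (-1.14 ± 0.12 SE) fell, beside 12.3% of all genes higher and 15.6% lower. Without 2-cell control replicate 1, 1 rose and 4 fell with T247, and 2 rose and 4 fell with MGCD0103. Under quantile normalization Dpf2 was not called with T247 (-0.97) or MGCD0103 (-0.94), and Dpf3 was called with T247 neither there (-0.74) nor under the 75th percentile scaling (-0.83). Brd9 also differed between the inhibitors, by -1.01 ± 0.26 SE. Bcl11b rose at the 1-cell stage too, by 1.36 with T247 and 1.14 with MGCD0103, the latter not called under the 75th percentile scaling or quantile normalization. Of all genes, 6.65% were called there with T247 and 4.36% with MGCD0103. At the 4-cell stage with T247 Dpf1 (2.53 ± 0.25 SE) and Bcl11a (1.08 ± 0.27 SE) rose and Bcl7c (-1.37 ± 0.19 SE) fell, beside 18.1% of all genes called. Bcl11a was not called there under the 75th percentile scaling. The only other subunit called between the inhibitors at the 1-cell stage was Bcl11a, lower with MGCD0103 (adjusted p = 0.00359) but not called under quantile normalization.

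Of 26 remodelers outside SWI/SNF, 0 were DEGs with either inhibitor at the 1-cell stage, beside 6.65% of all genes with T247 and 4.36% with MGCD0103. An adjusted p below 0.05 was reached by 7 with T247 and 5 with MGCD0103, beside 20.8% and 14.1% of all genes. At the 2-cell stage 1 rose and 5 fell with T247, beside 25.3% of all genes called, and 5 rose and 4 fell with MGCD0103, beside 27.9%. Ep400 rose with both (LFC 1.19 and 1.67), and Srcap (-1.89 and -2.07) and Ino80 (-1.71 and -1.19), ATPases of the INO80 and SWR1 group, fell with both, as did Baz1a (-1.34 and -1.62), an ISWI subunit. Ruvbl2 (1.12) and Chd5 (1.09) rose with MGCD0103. Without 2-cell control replicate 1 the counts were 2 and 5 with T247 and 9 and 4 with MGCD0103. Under quantile normalization 5 rose and 2 fell with T247, so the balance of rises and falls in this list depends on the scaling. At the 4-cell stage with T247 Smarca1 (1.13) rose, and Smarcad1 (-1.15) and Chd5 (-1.11) fell, beside 18.1% of all genes called. Smarca1 was not called there under quantile normalization.

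Across the 13 condition means, members differed in the genes whose pattern was most like theirs among 14681 genes detected in every condition. Smarca2 was most like Ankrd44 (Pearson r = 0.997) and Rph3a (0.994), Arid1b most like Tcaim and AU040320 (both 0.996), and Smarca4 most like Tma16 (0.983) and Ubxn11 (0.980). Smarce1 was most like Rtf2 (0.989) and Pwp2 (0.983), Smarcc2 like Zfp526 (0.970) and Rere (0.967), and Arid1a like Ncs1 (0.970) and Dcaf1 (0.968). The nearest genes were less close for Smarcb1 (Mecr, 0.956, and Cfhr2, 0.954) and Chd1 (Zfp385c and Hmgb3, both 0.944). Between members, Smarca2 and Arid1b correlated at 0.905 and Smarcc2 and Arid1b at 0.850. These values share arrays and stages, and over 13 points with large stage steps high values are common.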

How the data were processed

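RNA from 39 samples was hybridized by the authors to 1-colour Agilent mouse arrays. The deposited intensity values of each array were background-subtracted and detrended by Agilent Feature Extraction, version 9.5.1.1 per the labels and 10.7.1.1 per the file headers, and were not scaled between arrays. The log2 values of the series matrix, which the authors had filtered, filled in and normalized, served only as an alternative.

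Here log2 signals that were not positive and significant counted as missing (4% of values), and a robust estimate of how arrays vary together supplied them. A named probe entered the fit if each of the 8 conditions of the inhibitor experiment had 1 or more arrays with a positive, significant signal, which removed 9958 of 31398 named probes, while 24283 probes without a current name were not used. Values were smooth quantile normalized with a window of 0.05, and the brightest probe stood for a gene. Linear models over all 39 arrays used limma 3.58.1 (R 4.3.3), with p-values adjusted over all genes by Benjamini-Hochberg. A stage comparison used those of these genes that were also detected in its own conditions. DEGs had to pass both thresholds, 1 for the size of the LFC and 0.05 for the adjusted p. The fit was tested on simulated data. Precision is set by having 3 arrays per condition, and the array signal has no read depth.

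The members, the lists of other subunits and remodelers, and the tests were chosen with earlier results of these data known. All members are named, though not every probe by its identifier, and from each list the 3 DEGs with the largest rises and the 3 with the largest falls per inhibitor comparison. Alternatives were other scalings, background correction, filters, no fill-in, the mean of probes, the 24 arrays of the inhibitor experiment alone, blocks for slide and replicate number, and leaving out each array. A block for the slide among the untreated arrays alone was added after seeing the data. Same-numbered untreated arrays shared a slide per the file headers, but deviations of same-numbered arrays correlated only between 0.0239 and 0.283 in stage comparisons, and between -0.179 and 0.219 across treated and control arrays, which lay on different slides. Positions of probes are those of build mm9 in the files, and their place in an exon or UTR was not determined here. The genes most like Smarcc1 are not reported here.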

Additional observations from a re-analysis of the deposited data

Results flagged for a closer look

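For 3 results of members the effect of an inhibitor differed between stages by a test of the difference itself. The LFC of Smarce1 with T247 was lower at the 2-cell than at the 1-cell stage by -1.33, for the brighter of its probes. The LFC of Smarcc1 with MGCD0103 was lower at the 2-cell than at the 1-cell stage by -1.16, and by -0.90, short of the threshold, under the 75th percentile scaling. The LFC of Smarcc1 with T247 was higher at the 4-cell than at the 2-cell stage by 1.05, and by 0.68, also short of it, under that scaling.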

How the results depend on the processing

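Counts of DEGs among the members that moved by over 1.5 times were as follows. Under the 75th percentile scaling they were 0 with T247 and 1 with MGCD0103 at the 2-cell stage, 0 for both stage differences of T247, 3 from 8-cell to morula and 0 from morula to blastocyst. Under quantile normalization they were 0 with T247 at the 2-cell stage, 1 between the inhibitors there, 2 for the 2-cell minus 1-cell difference of MGCD0103, 0 for the 4-cell minus 2-cell difference of T247, 2 from 8-cell to morula and 0 from morula to blastocyst. Under normexp they were 0 from morula to blastocyst and 0 for T247 in 2-cell embryos. With no filter they were 2 with T247 at the 2-cell stage, 2 for each 2-cell minus 1-cell difference, 1 from 8-cell to morula and 2 from morula to blastocyst. With the mean of probes T247 gave 2 at the 2-cell stage, and with the 24 arrays of the inhibitor experiment its 2-cell minus 1-cell difference gave 0. There the difference for Smarce1 turned to 0.74, since its other probe then became the brightest, and Arid1b turned to 1.12 from GV to MII under the 75th percentile scaling, where the median of all genes moved from -0.97 to 0.34. Smaller moves were from 6 to 7 (quantile normalization, with Smarcc1 at -1.09, or no filter, with Smarcd1) and to 5 (normexp, without Chd1) from the 2-cell to the 4-cell stage, from 3 to 2 from MII to 1-cell (75th percentile scaling, without Smarca2, or the mean of probes, without Smarcc1), from 4 to 5 from 1-cell to 2-cell (75th percentile scaling, with Chd1, mean of probes, with Arid1b, or no filter, with Smarcd1), from 2 to 3 with MGCD0103 at the 2-cell stage (no filter, with Smarcd1) and from 5 to 6 from GV to MII (75th percentile scaling). Equal counts held other members for GV to MII and 1-cell to 2-cell under quantile normalization, for the 2-cell minus 1-cell difference of MGCD0103 under the 75th percentile scaling and for that of T247 with the mean of probes. For GV to MII and 1-cell to 2-cell some of those members were called higher, where all calls had been lower.

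Leaving out 1 array at a time gave counts of 0 to 2 with T247 and 1 to 2 with MGCD0103 at the 2-cell stage, 1 to 2 and 1 to 3 for the 2-cell minus 1-cell differences of T247 and MGCD0103, 0 to 1 for the 4-cell minus 2-cell difference of T247, 0 to 1 between the inhibitors at the 2-cell stage, 0 to 2 from 8-cell to morula, 5 to 6 from 2-cell to 4-cell and 3 to 4 from MII to 1-cell. The Smarcc1 difference of T247 between the 4-cell and 2-cell stages was lost without 2-cell control replicate 2 (0.93) or 3 (0.92), 4-cell control replicate 2 (0.99), 2-cell T247 replicate 2 (0.91) or 4-cell T247 replicate 3 (0.83). Fitting the replicate number as a replicate block, or the slide, changed none of the counts, with 1 DEG with T247 and 2 with MGCD0103 at the 2-cell stage under the replicate block. Dim signals limit Smarcd1, which has only bounds in most groups.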
